A study of Rattus norvegicus with 48 samples.

Results

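The T cell genes followed here in rat lung after inhalation of oil vapor are Cd3e, Cd3d, Cd3g, Cd247, Lck, Cd5, Cd28, Bcl11b and Kcna3. They were taken as the rows with these symbols, 9 of the 30045 genes counted. The lungs came from male Sprague-Dawley rats that breathed oil vapor or filtered air in whole-body chambers. Oil vapor was given at 300 ppm, and each exposure lasted 6 h, either on 1 day (single exposure) or on 4 days per week for 4 weeks (repeated exposure, 16 exposure days). Animals were killed 1 or 28 days afterwards. The 8 groups were oil vapor and air at 1 day and at 28 days after the single exposure, and the same 4 after the repeated exposure, with 6 animals in each. Each library was made from total RNA of a piece of lung after removal of ribosomal RNA, 1 per animal. Time after exposure and age of the rats cannot be told apart.

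T cells recognize antigen with a receptor whose antigen-binding chains have almost no tail inside the cell. The CD3 chains (Cd3e, Cd3d, Cd3g) and the zeta chain (Cd247) carry the signal inward, where the kinase Lck phosphorylates them. Cd28 gives the second signal that a resting T cell needs, and Cd5 damps receptor signaling. Bcl11b is the transcription factor that commits precursors to the T lineage, and Kcna3 encodes the potassium channel Kv1.3, which sustains calcium entry in effector memory T cells and is also present in other cells. In the lung, T cells patrol the vessels and airways and stay behind as resident memory cells.

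Promoter windows from RefSeq (assembly GRCr8) were matched by symbol for 8 of the 9 genes, all but Bcl11b. Each window spans 250 bases before to 50 bases from the annotated start. Of the 5 windows below, those of Cd3e, Cd3d and Cd247 belong to genes whose levels varied together from animal to animal. Those of Cd3g and Kcna3 belong to the 2 genes that had lower correlations with the others. Any link between motifs and correlations was not tested. Capitals mark matches on either strand to AGGAAG (ETS factors), CAGGTG or CAGCTG (E-boxes), CTTTGA (TCF/LEF factors) and GGGCGG (GC box). The matches in these 5 windows did not overlap.
Cd3e: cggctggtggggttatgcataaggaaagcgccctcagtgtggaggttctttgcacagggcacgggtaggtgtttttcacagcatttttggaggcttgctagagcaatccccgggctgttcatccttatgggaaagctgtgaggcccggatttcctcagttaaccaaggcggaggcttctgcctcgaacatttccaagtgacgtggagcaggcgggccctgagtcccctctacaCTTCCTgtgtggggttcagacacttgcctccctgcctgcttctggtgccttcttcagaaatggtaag
Cd3d: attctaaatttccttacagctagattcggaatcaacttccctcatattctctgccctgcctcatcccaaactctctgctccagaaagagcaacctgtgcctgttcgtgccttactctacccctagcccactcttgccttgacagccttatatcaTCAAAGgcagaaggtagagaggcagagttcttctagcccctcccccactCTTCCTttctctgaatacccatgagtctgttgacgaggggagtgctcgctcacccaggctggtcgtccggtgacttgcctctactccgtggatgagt
Cd247: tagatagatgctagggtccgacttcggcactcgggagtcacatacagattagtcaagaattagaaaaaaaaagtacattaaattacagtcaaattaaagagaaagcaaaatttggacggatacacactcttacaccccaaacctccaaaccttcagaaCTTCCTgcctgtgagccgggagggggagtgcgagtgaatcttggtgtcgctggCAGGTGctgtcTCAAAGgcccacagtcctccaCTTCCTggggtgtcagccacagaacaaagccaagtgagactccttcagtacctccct
Cd3g: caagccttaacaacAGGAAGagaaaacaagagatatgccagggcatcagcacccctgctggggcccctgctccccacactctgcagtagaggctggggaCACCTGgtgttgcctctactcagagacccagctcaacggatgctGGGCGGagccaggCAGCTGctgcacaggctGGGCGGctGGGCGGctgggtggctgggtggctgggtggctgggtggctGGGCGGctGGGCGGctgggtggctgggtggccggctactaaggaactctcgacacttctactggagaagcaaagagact
Kcna3: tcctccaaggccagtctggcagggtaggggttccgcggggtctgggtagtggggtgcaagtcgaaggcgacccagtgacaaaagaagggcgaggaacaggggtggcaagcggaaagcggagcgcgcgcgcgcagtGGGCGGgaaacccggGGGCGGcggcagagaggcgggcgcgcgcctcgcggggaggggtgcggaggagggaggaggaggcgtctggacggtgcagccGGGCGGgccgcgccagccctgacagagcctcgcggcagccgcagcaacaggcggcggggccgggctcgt
The windows are chr8:54211721-54212020 (minus strand) for Cd3e, chr8:54185269-54185568 (plus) for Cd3d, chr13:80576019-80576318 (plus) for Cd247, chr8:54183869-54184168 (minus) for Cd3g and chr2:197320074-197320373 (plus) for Kcna3. Cd3d and Cd3g start 1601 bases apart on opposite strands. AGGAAG was found in 7 of the 9 windows of these genes (Lck has 2), against 34.5% of the 33469 windows listed. The windows of Kcna3 and Cd28 were those without it. CAGGTG was found in 6 of the 9 windows, against 18.8% of all. GGGCGG was found in 2, those of Cd3g and Kcna3, against 33.1% of all. CAGCTG was found in 2 of the 9, against 15.1% of all. For CTTTGA the count was 2, against 16.1% of all. For TGTGGT (RUNX factors) it was also 2, against 17.3% of all. AGATAA, a motif of Gata3 and its relatives, was found in 1, against 11.6% of all, and TATAAA in 0, against 14.2% of all. A match describes these letters and not bound protein.

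All 9 genes were detected in every library, at low counts. Across the 48 animals the counts per library lay between 7 (Cd3g) and 231 (Lck). In counts scaled to library size (CPM), Lck ranged between 19.3 and 66.4 with a median of 28.0, and Bcl11b between 9.06 and 41.6 with a median of 13.99. Cd247 ranged between 6.99 and 43.6 CPM, Cd28 between 5.92 and 28.0 CPM and Kcna3 between 5.79 and 14.96 CPM. Cd5 ranged between 3.62 and 23.4 CPM, Cd3e between 4.20 and 16.9 CPM, Cd3d between 2.15 and 33.2 CPM and Cd3g between 1.66 and 7.81 CPM. CPM is not scaled to transcript length, so these ranges do not rank the genes against each other. In RNA of whole tissue, fewer T cells and less RNA per T cell cannot be told apart.

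The lung identity of the libraries was checked with the surfactant gene Sftpc of alveolar type 2 cells, at 2084 to 7742 CPM. Library totals lay between 3.60 and 7.16 M (mega) counts except in animal 43, with 1.54 M. That animal (repeated exposure, oil vapor, 1 day) had the highest level of all 48 for each of the 9 genes. Animal 5 (single exposure, oil vapor, 1 day) ranked second for 7 of them, all but Cd3g and Kcna3, for which it ranked 9 and 18. For these 2 genes the lead of animal 43, the smallest library, was small (Kcna3 14.96 CPM, next 14.7, and Cd3g 7.81 CPM, next 7.06). In animals 43 and 5 transcripts of red cell precursors were also high. A list of 10 neutrophil transcripts summed to 820 CPM in animal 43 and 378 CPM in animal 5, against at most 366 CPM in any other animal. A list of 9 spleen and bone marrow transcripts summed to 22152 CPM in animal 43 and 6470 CPM in animal 5, against at most 3901 CPM in any other animal. Alas2, the first enzyme of heme synthesis in these precursors, made up 19529 CPM of the sum in animal 43 and 5699 CPM in animal 5, while the marrow myeloid genes Mpo, Elane, Prtn3 and Ms4a3 reached at most 0.997 CPM in any animal. Alveolar type 2 transcripts summed to 6531 CPM in animal 43, the lowest of all 48, and to 13803 CPM in animal 5, which ranked 46. A list of 10 thymus genes summed to between 19.3 and 39.6 CPM, highest in animal 5, with 33.8 CPM in animal 43, which ranked 6. Of its genes, Cd1d1, which presents lipids to T cells (16.4 to 30.1 CPM), and the homing receptor Ccr9 (0.699 to 13.01 CPM) were found in every library, Rag1 was at 0 in 6 libraries, Ptcra in 36 and Foxn1 in 44. The part of red cell precursors, neutrophils, marrow or thymus in the levels of the 9 genes was not tested. Counts without animals 5 and 43 are given where they differ.

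A further feature of the libraries concerned both schedules. Each animal was paired, by the order of animal numbers in its group, with its counterpart after the other schedule at the same time and treatment. Counts of Alas2 were nearly equal in these pairs. Animal 43 had 30019 Alas2 counts and animal 5 had 27026. The ratio of the repeated to the single animal lay between 0.97 and 1.39 over 24 pairs, within 25% in 23 of them. Other red cell genes were within 25% in 17 (Hbb and Hemgn) to 20 pairs (Ahsp), and the liver gene Alb in 16. The heart gene Myh7 was so in 11 of the 23 pairs where both animals had counts. The 9 T cell genes were so in 5 (Cd5) to 13 pairs (Kcna3). For Cd247 that ratio lay between 0.53 and 2.16 and for Cd3d between 0.37 and 3.60, within 25% in 8 and 6 pairs. Alas2 had 402 to 30019 counts per library, against 7 to 231 for the 9 genes. Ratios of small counts scatter more, so these numbers cannot show whether the T cell genes lack the likeness seen for Alas2. Ratios were not computed for animals of unlike rank. Over the pairs, centred log2(CPM + 1) values correlated for Cd247 (Pearson r = 0.78, permutation p = 0.00159, 0.0143 adjusted over the 9 genes; Spearman rho = 0.53, adjusted p = 0.159). Without the 2 pairs farthest from the median the r was 0.64, and without the pair of animals 5 and 43 it was 0.54 (adjusted permutation p = 0.128). For the other 8 genes r lay between -0.13 (Kcna3) and 0.52 (Cd3d), with adjusted permutation p of 0.396 or more. The libraries of the 2 schedules may therefore not be independent of each other in every transcript, and the cause was not tested.

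**Figure D1:**
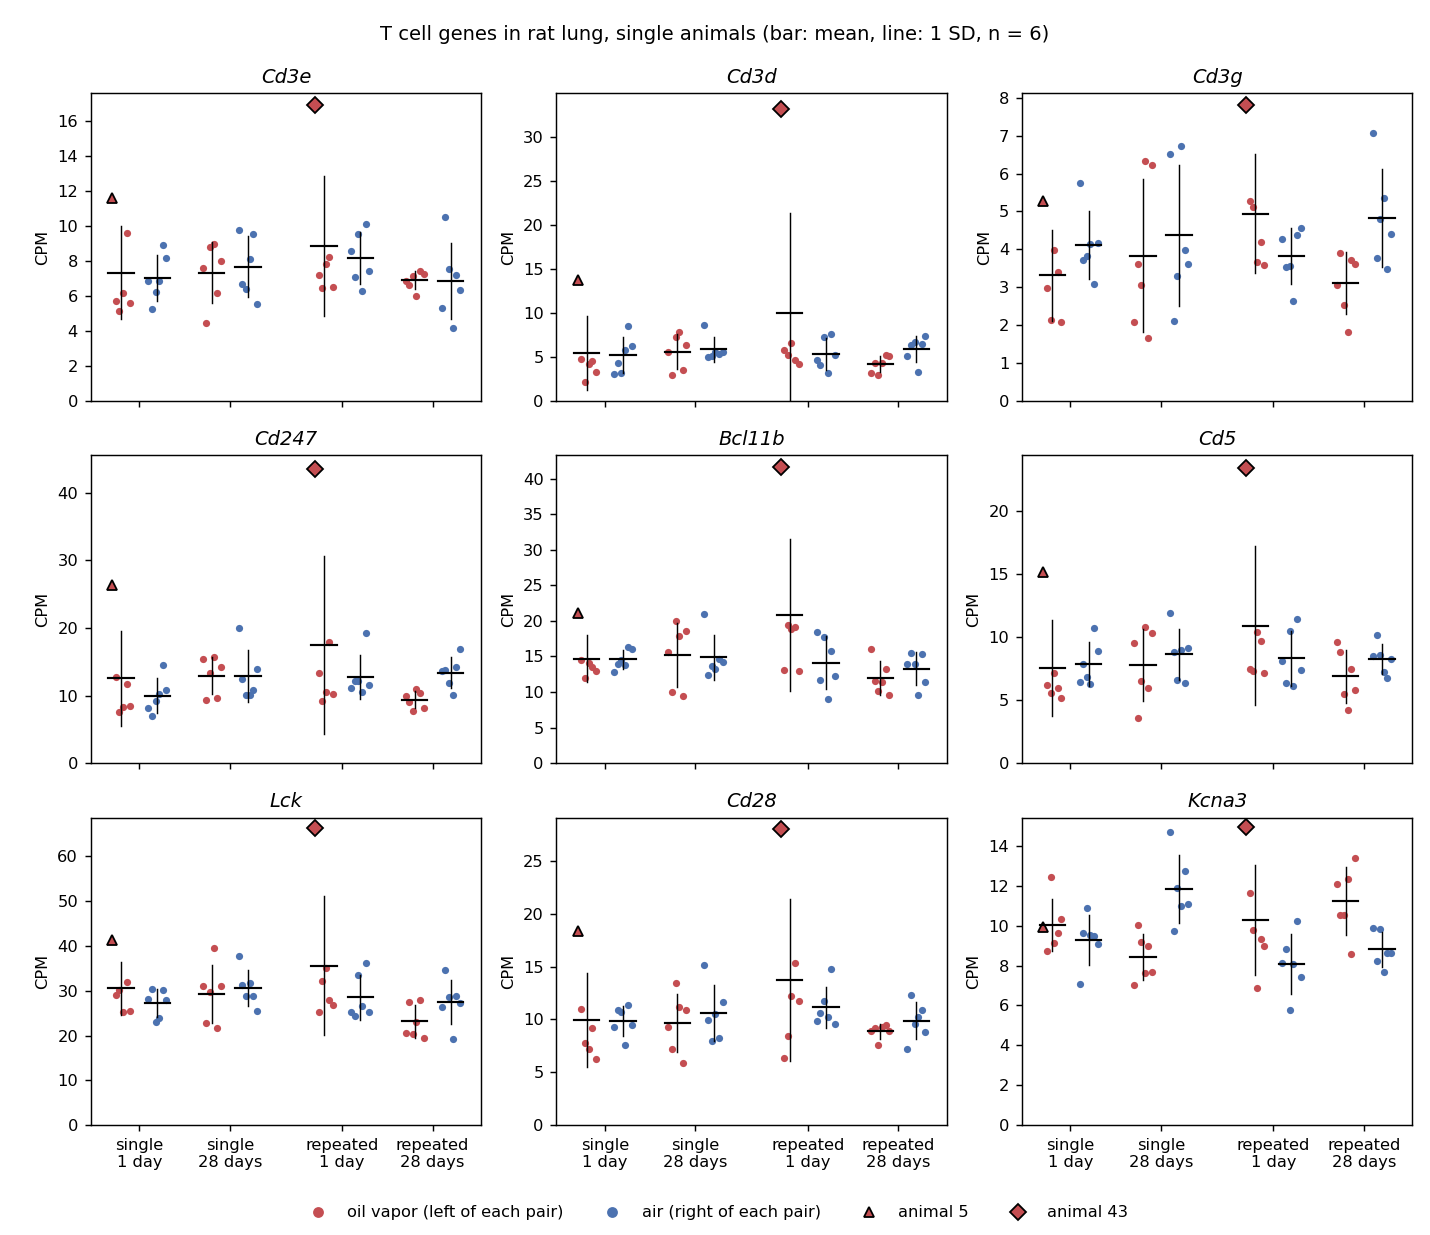
Level of each T cell gene in single animals (y axis, CPM) by schedule and time (x axis), with oil vapor in red left of air in blue. Horizontal bars are means and vertical lines 1 SD over 6 animals (lines are cut at 0). The diamond is animal 43, the highest value in all 9 panels, and the triangle is animal 5, which ranks second of all 48 animals in 7 panels, but not for Cd3g and Kcna3.

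Averaged by group, 8 of the 9 genes were highest in the oil vapor group at 1 day after the repeated exposure, and Kcna3 was highest in air at 28 days after the single exposure. Without animals 5 and 43 the repeated oil vapor group at 1 day was highest for 1 gene. Each schedule was counted in its own table, so the order across schedules is a description. Of the 63 steps between neighbours in the order of the 8 group means, 1 was larger than the greater SD of its pair: Lck averaged 23.2 ± 3.75 CPM in oil vapor at 28 days after the repeated exposure, the lowest group, and 27.2 ± 3.12 CPM in air at 1 day after the single exposure, the next (SD, n = 6 each). All other neighbours differed by less than the greater SD. Sorting keeps steps between neighbours small, so this does not speak to groups farther apart in the order. Kcna3, for example, averaged 11.9 ± 1.70 CPM in air and 8.43 ± 1.15 CPM in oil vapor at 28 days after the single exposure.

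One day after the repeated exposure, no T cell gene changed past the test, although fitted means were higher in oil vapor than in air. All 9 genes had a higher fitted mean in oil vapor, with a median log2 fold change of 0.35 against 0.02 for all genes. Most of these genes varied together from animal to animal, so a count of genes in 1 direction is not a test. None of the 9 passed edgeR's quasi-likelihood test (adjusted p below 0.05), 1 had an unadjusted p below 0.05 against 9.29% of all genes, and 0 passed with DESeq2 or limma-voom. Of all 15005 genes tested, 0.00666% were called. Without animal 43, 5 of the 9 were higher and 4 lower, with a median of 0.02. In that fit 32 of all 15090 genes were called, none of them among the 9.

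Among the receptor chains, Cd3d had a lowest, median and highest value of 4.24, 5.54 and 33.2 CPM in oil vapor, against 3.13, 4.97 and 7.56 CPM in air. The oil vapor maximum was animal 43, and the other 5 oil vapor animals, at up to 6.59 CPM, lay inside the range of air. The log2 fold change of 0.76 (SE 0.45, adjusted p = 0.614, edgeR) became -0.01 (SE 0.22) without that animal. Cd247 had 9.21, 11.9 and 43.6 CPM in oil vapor, against 10.5, 11.8 and 19.3 CPM in air, and its log2 fold change of 0.39 (SE 0.32) became -0.08 (SE 0.17). Cd3e, at 6.43, 7.51 and 16.9 CPM in oil vapor, against 6.26, 7.99 and 10.1 CPM in air, had a log2 fold change of 0.08 (SE 0.24) with animal 43 and -0.17 (SE 0.17) without it. Cd3g had 3.59, 4.65 and 7.81 CPM in oil vapor, against 2.63, 3.92 and 4.57 CPM in air. The groups overlapped, yet 3 oil vapor animals lay above the highest air animal. The log2 fold change was 0.35 (SE 0.24) and 0.19 (SE 0.21) without animal 43.

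Lck, the kinase beside the receptor, had 25.2, 30.0 and 66.4 CPM in oil vapor, against 24.4, 25.9 and 36.3 CPM in air at the same time. All oil vapor values but that of animal 43 lay inside the range of air. The log2 fold change was 0.36 (SE 0.22), or 0.05 (SE 0.13) without animal 43. For Cd5 and Cd28 the values were 0.35 (SE 0.29) and 0.28 (SE 0.26), or 0.02 and -0.02 without it. Bcl11b was the gene with an unadjusted p below 0.05. Lowest, median and highest were 12.9, 19 and 41.6 CPM in oil vapor, against 9.06, 14 and 18.4 CPM in air, with 3 oil vapor animals besides animal 43 above the highest air animal. On the log2 scale the difference was 0.56 (SE 0.26, adjusted p = 0.512, edgeR), and 0.26 (SE 0.17, adjusted p = 0.533) without animal 43. Kcna3 had 6.89, 9.56 and 14.96 CPM in oil vapor, against 5.79, 8.10 and 10.3 CPM in air, a log2 fold change of 0.34 (SE 0.18), or 0.19 (SE 0.15) without that animal.

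**Figure D2:**
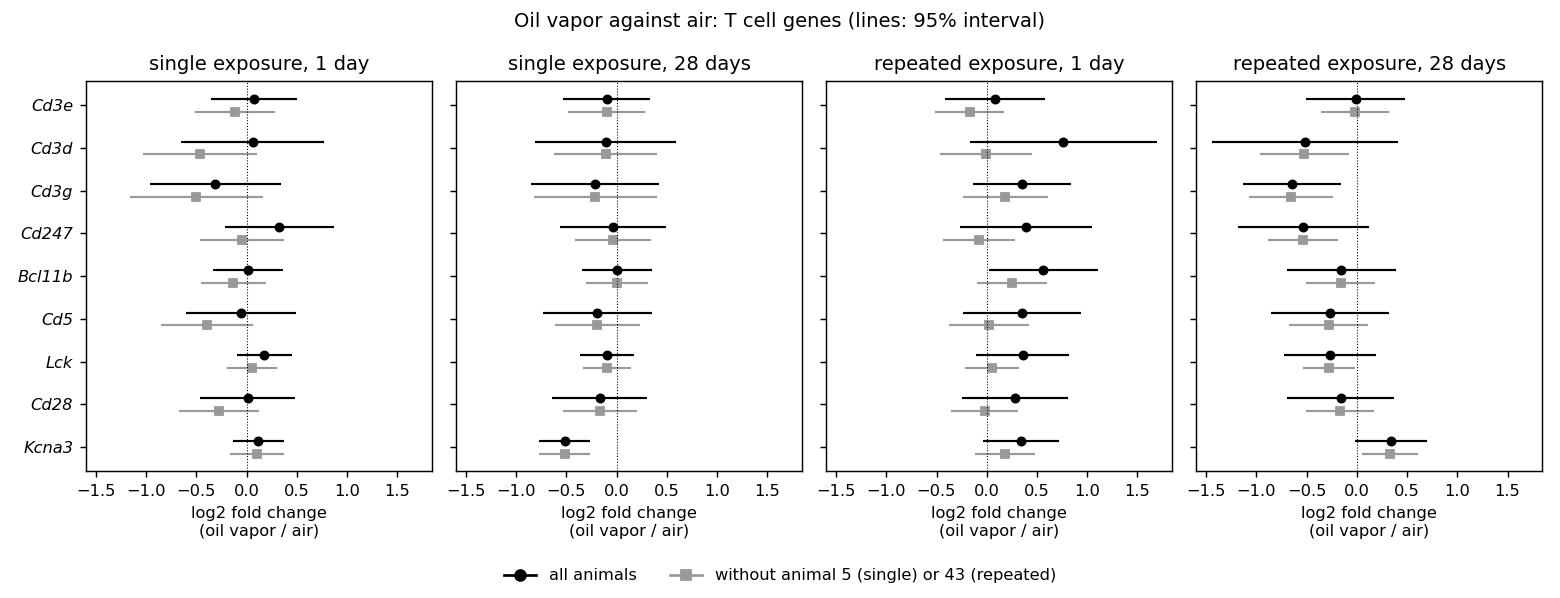
Log2 fold change of oil vapor over air (x axis) for each T cell gene (y axis) in the 4 comparisons, with 95% intervals. Black circles are all animals and gray squares leave out animal 5 (single exposure) or 43 (repeated exposure). At 1 day after the repeated exposure the black circles lie right of 0 for all 9 genes and the gray squares lie nearer to 0 for all but Cd3e, and Kcna3 lies left of 0 at 28 days after the single exposure and right of 0 at 28 days after the repeated exposure.

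At 28 days after the repeated exposure most of the 9 genes had lower fitted means in oil vapor than in air. All but Kcna3 were lower, with a median log2 fold change of -0.27 against 0.01 for all genes. None passed edgeR's quasi-likelihood test, DESeq2 or limma-voom. With unadjusted p below 0.05 there were 1 with edgeR (4.86% of all genes), 1 with DESeq2 and 5 with limma-voom, and 0% of all 15005 genes were called. Neither group at this time held animal 43, but its library set part of the spread in the fit. Without it 5 of the 9 had an unadjusted p below 0.05 (Cd3d, Cd3g, Cd247, Lck and Kcna3), and 0 passed after adjustment. In that fit 61 of all 15090 genes were called. Shares of all genes with an unadjusted p below 0.05 were computed only for the edgeR fits with all animals.

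Cd3g differed most, with 1.82, 3.34 and 3.91 CPM as lowest, median and highest in oil vapor and 3.49, 4.61 and 7.06 CPM in air. The groups overlapped between 3.49 and 3.91 CPM. The log2 fold change was -0.64 (SE 0.24, adjusted p = 0.821, edgeR). Cd247 had 7.78, 9.46 and 10.9 CPM in oil vapor, against 10.02, 13.7 and 16.9 CPM in air, and 4 oil vapor animals lay below the lowest air animal. The fold change on the log2 scale was -0.53 (SE 0.32, adjusted p = 0.980), and without animal 43 it was -0.54 (SE 0.17, adjusted p = 0.172). Cd3d had 2.94, 4.33 and 5.21 CPM in oil vapor, against 3.26, 6.46 and 7.41 CPM in air, a log2 fold change of -0.51 (SE 0.45). Cd3e, the remaining chain, had 6.00, 7.01 and 7.44 CPM in oil vapor, against 4.20, 6.78 and 10.5 CPM in air. Its log2 fold change was -0.01, with a 95% interval of -0.50 to 0.48, and its oil vapor animals lay within the range of air. The 95% interval of Cd3g was -1.13 to -0.16, and the difference between chains was not tested.

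Lck had 19.4, 21.9 and 27.9 CPM in oil vapor, against 19.3, 28.0 and 34.7 CPM in air at 28 days after the repeated exposure, a log2 fold change of -0.27 (SE 0.22). Cd5, Cd28 and Bcl11b had log2 fold changes of -0.27 (SE 0.28), -0.16 (SE 0.26) and -0.16 (SE 0.26). Kcna3 had the opposite sign, with 8.56, 11.3 and 13.4 CPM in oil vapor, against 7.69, 8.63 and 9.88 CPM in air. Of the 6 oil vapor animals 5 lay above the highest air animal. The log2 fold change was 0.34 (SE 0.17, adjusted p = 0.980, edgeR), so the difference did not pass the test. In the same groups spleen and bone marrow transcripts summed to a lowest, median and highest of 95.3, 361 and 711 CPM in oil vapor, against 635, 1238 and 2693 CPM in air. Heart muscle transcripts summed to 34.2, 94.2 and 301 CPM in oil vapor, against 188, 397 and 1472 CPM in air, and liver transcripts to 133, 144 and 151 CPM in oil vapor, against 134, 191 and 1073 CPM in air. With scores of spleen and bone marrow, liver and heart transcripts in the model, 8 of the 9 genes had higher fitted means in oil vapor, with a median of 0.27. None of the 9 was called in that fit. The spleen and bone marrow sums of oil vapor and air overlapped only between 635 and 711 CPM, so oil vapor and these transcripts cannot be told apart there.

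After the single exposure, oil vapor and air gave overlapping ranges for every one of the 9 genes. At 1 day 7 of the 9 had a higher and 2 a lower fitted mean in oil vapor (median log2 fold change 0.06, all genes 0.01). None passed edgeR's quasi-likelihood test, 0 had an unadjusted p below 0.05 against 10.1% of all genes, 0 passed with DESeq2 or limma-voom, and 0% of all 14820 genes were called. Without animal 5, 2 were higher and 7 lower, with a median of -0.13. Cd247 had 7.52, 10.1 and 26.4 CPM in oil vapor, where the highest was animal 5, and 6.99, 9.76 and 14.5 CPM in air. A log2 fold change of 0.33 (SE 0.26) became -0.05 (SE 0.20) without animal 5. Lck, with 25.3, 29.7 and 41.3 CPM in oil vapor, against 22.96, 28.0 and 30.4 CPM in air, had a log2 fold change of 0.18 (SE 0.13) and 0.06 (SE 0.12). The other 7 genes had log2 fold changes between -0.31 (Cd3g) and 0.12 (Kcna3).

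At 28 days after the single exposure, Kcna3 had the smallest p of the 9 genes. It had 7.04, 8.33 and 10.03 CPM in oil vapor, against 9.75, 11.5 and 14.7 CPM in air. Of the 6 oil vapor animals 5 lay below the lowest air animal. Oil vapor over air gave a log2 fold change of -0.52 (SE 0.12, 95% interval -0.77 to -0.27), which ranked 17 by p among 14820 genes and did not pass after adjustment (adjusted p = 0.221, edgeR). Over the other settings tried the adjusted p lay between 0.0621 (without animal 5) and 0.769 (with other-tissue scores, log2 fold change -0.34). In the fit without animal 5, 69 of all 14922 genes were called, Kcna3 not among them. The other 8 genes had log2 fold changes between -0.21 (Cd3g) and 0.00 (Bcl11b), and no interval excluded 0. Of the 9 genes 1 was higher and 8 lower, with a median of -0.11 against 0.01 for all genes. None passed edgeR's quasi-likelihood test, DESeq2 or limma-voom, 1 (Kcna3) had an unadjusted p below 0.05 against 8.21% of all genes, and 0% of all genes were called. Spleen and bone marrow transcripts summed to 99.2, 317 and 600 CPM in oil vapor, against 691, 1182 and 3901 CPM in air at this time. Heart muscle transcripts had a median of 276 CPM in oil vapor, against 540 CPM in air, and liver transcripts one of 137 CPM in oil vapor, against 174 CPM in air. With the other-tissue scores in the model 8 of the 9 genes had higher fitted means in oil vapor (median 0.51), and none of the 9 was called. The spleen and bone marrow sums of oil vapor and air did not overlap, so oil vapor and these transcripts cannot be told apart in that fit.

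Kcna3 had a higher fitted mean in oil vapor than in air at 28 days after the repeated exposure, and a lower one at 28 days after the single exposure. In a fit that took the libraries of the 2 schedules as independent, the difference between these effects, repeated minus single, was 0.86 on the log2 scale (SE 0.21, 95% interval 0.43 to 1.28, edgeR). It ranked 4 by p among 15322 genes and did not pass after adjustment (adjusted p = 0.546), and its value lay between 0.83 and 0.87 over the settings tried, with adjusted p between 0.0672 (limma-voom) and 0.919 (no filter on low counts). Of the 9 genes 3 were higher and 6 lower in this difference and 1 (Kcna3) had an unadjusted p below 0.05, against 5.195% of all genes, while 0 passed with edgeR, DESeq2 or limma-voom and 0% of all genes were called. For the effect at 1 day, all 9 genes had a positive difference between repeated and single exposure (median 0.26, all genes 0.02). None passed with edgeR, DESeq2 or limma-voom, 0 had an unadjusted p below 0.05 against 9.74% of all genes, and 0.0457% of all genes were called. Without animals 5 and 43, 6 were positive and 3 negative.

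Change over time was set within each treatment. In oil vapor after the repeated exposure, 8 of the 9 genes had lower fitted means at 28 days than at 1 day, and Kcna3 had a higher one (median log2 fold change -0.62, all genes -0.01). With edgeR 0 of 9 passed against 0.34% of all genes, and 6 had an unadjusted p below 0.05 (Cd3d, Cd3g, Cd247, Bcl11b, Lck and Cd28), against 14.96% of all genes. DESeq2 called 1, Bcl11b, and 2.07% of all genes, and limma-voom called 0 of the 9. Bcl11b had 9.59, 11.5 and 16.04 CPM at 28 days and 12.9, 19 and 41.6 CPM at 1 day. Its log2 fold change was -0.77 (SE 0.26, adjusted p = 0.168, edgeR), or -0.88 (adjusted p = 0.0498) with DESeq2, and -0.46 (SE 0.17, adjusted p = 0.198, edgeR) without animal 43. Lck had a log2 fold change of -0.64 (SE 0.23), or -0.34 (SE 0.13) without animal 43, and Cd3d of -1.09 (SE 0.46), or -0.33 (SE 0.23). Without animal 43, 8 were lower and 1 higher, with a median of -0.33. The 4 with an unadjusted p below 0.05 were Cd3g, Bcl11b and Lck, which were lower, and Kcna3, which was higher. In that fit 0 of the 9 and 156 of all 15090 genes were called.

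In air after the repeated exposure 5 genes were higher and 4 lower at 28 days than at 1 day (median 0.03), and 0 had an unadjusted p below 0.05, against 10.7% of all genes. The effect of oil vapor at 28 days minus that at 1 day was negative for all 9 genes (median -0.62) and for 7 of 9 without animal 43 (median -0.33). It was largest against its error for Cd3g, at -0.99 (SE 0.33, adjusted p = 0.487, edgeR), the 1 gene with an unadjusted p below 0.05 (7.80% of all genes), and Kcna3 had a value of 0.00 (SE 0.27). None of the 9 passed in either contrast with edgeR, DESeq2 or limma-voom, where 0.327% and 0.00666% of all genes were called.

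After the single exposure 5 of the 9 genes had higher and 4 lower fitted means at 28 days in oil vapor (median 0.03), and all 9 were higher at 28 days in air (median 0.17, all genes 0.00). Without animal 5 the oil vapor count was 8 higher and 1 lower (median 0.24), with Cd3d at 0.56 (SE 0.27, adjusted p = 0.227, edgeR) and Cd247 at 0.41 (SE 0.20, adjusted p = 0.217), each with an unadjusted p below 0.05. In that fit 0 of the 9 and 1226 of all 14922 genes were called. With all animals none of the 9 passed with edgeR, DESeq2 or limma-voom, whereas 9.43% of all genes were called in oil vapor and 3.25% in air. In each treatment 1 gene, Kcna3, had an unadjusted p below 0.05, against 24.4% of all genes in oil vapor and 15.5% in air. Kcna3 had 9.75, 11.5 and 14.7 CPM in air at 28 days and 7.07, 9.52 and 10.9 CPM in air at 1 day, a log2 fold change of 0.37 (SE 0.12, adjusted p = 0.0997, edgeR). In oil vapor its log2 fold change over time was -0.26 (SE 0.12, adjusted p = 0.181). The effect of oil vapor at 28 days minus that at 1 day was -0.64 (SE 0.17, adjusted p = 0.378). In that contrast 1 of the 9 was higher and 8 lower, and without animal 5 it was 7 higher and 2 lower (median 0.11 in place of -0.17). With edgeR, DESeq2 or limma-voom 0 passed, 1 (Kcna3) had an unadjusted p below 0.05 against 7.83% of all genes, and 0% of all genes were called.

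From animal to animal, 7 of the 9 genes varied together. Over the 48 animals, with values taken as log2(CPM + 1) and centred within groups, the 21 pairs among Cd3e, Cd3d, Cd247, Lck, Cd5, Cd28 and Bcl11b had Pearson r between 0.66 and 0.86 and Spearman rho between 0.53 and 0.77. The permutation p, with values permuted within groups and adjusted over all 36 pairs, was at most 0.000326 for r and 0.00144 for rho. Leaving out the 2 animals farthest from the median gave r between 0.48 and 0.72. Without animals 5 and 43 r lay between 0.43 and 0.69, and all 21 pairs remained below an adjusted p of 0.05. The values of an animal share its library and its total.

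Cd3g, whose protein sits in the same complex, had lower correlations with this set, and the difference was not tested. Its 7 pairs had r between 0.34 and 0.48, and all 7 passed by r (adjusted permutation p at most 0.0498) and 3 by rho. Without animals 5 and 43 r lay between 0.14 and 0.33, and 0 of 7 passed. Cd3g also had the lowest counts of the 9 genes, 7 to 40 per library, and the part of counting error in its correlations was not tested. Kcna3 had r between 0.02 and 0.30 with the other 8 genes, and between -0.27 and 0.07 without animals 5 and 43, and 0 of 8 pairs passed in either set. Against the mean of the other 8 genes, Cd3d had the highest r (0.91) and Kcna3 the lowest (0.39, and -0.19 without animals 5 and 43).

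**Figure D3:**
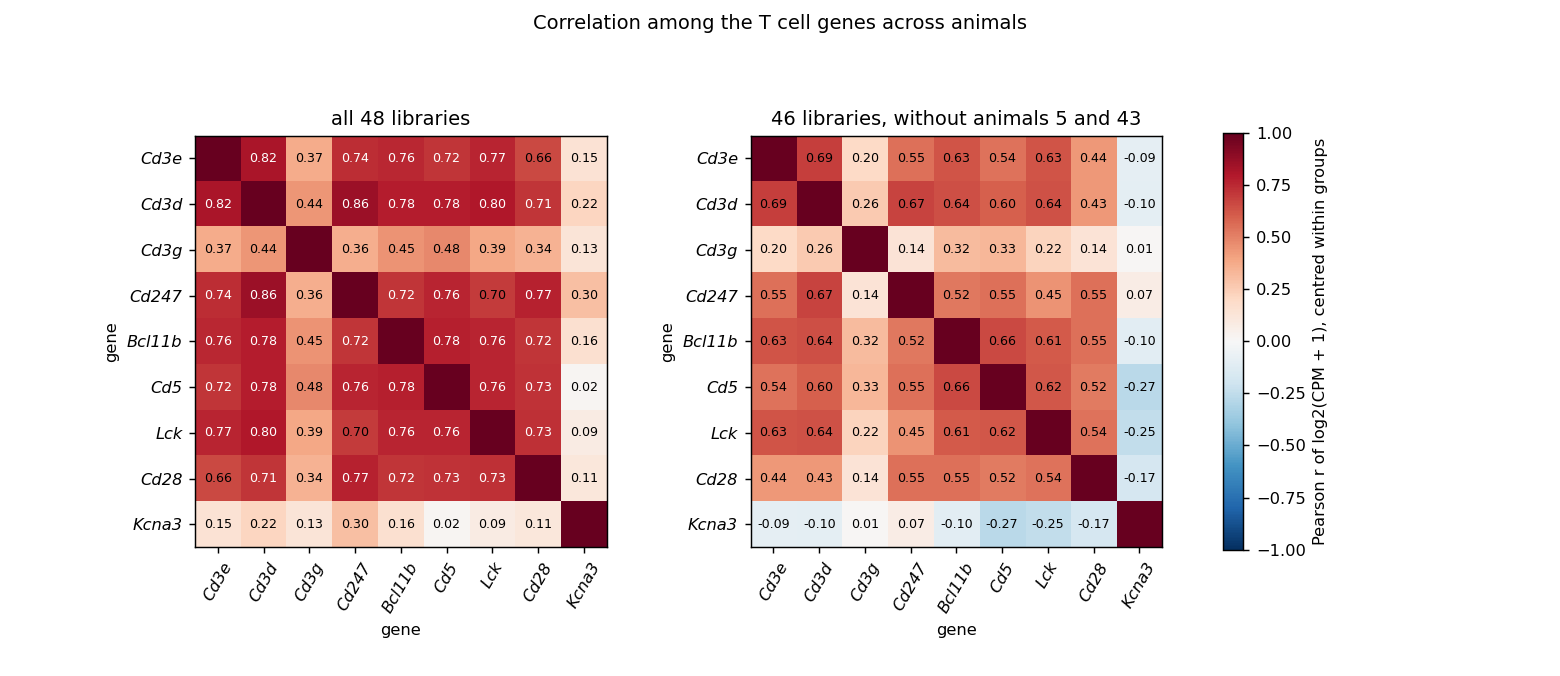
Pearson r between each pair of T cell genes (x and y axes) over animals, on log2(CPM + 1) values centred within the 8 groups, with all 48 libraries (left) and without animals 5 and 43 (right). All genes but Cd3g and Kcna3 form a block with r of 0.66 or more on the left and 0.43 or more on the right, and the row of Kcna3 lies between 0.02 and 0.30 on the left and between -0.27 and 0.07 on the right.

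Spleen and bone marrow transcripts, mostly Alas2, correlated with 7 of the 9 genes by Pearson r and with 3 (Cd3d, Cd247 and Cd5) by Spearman rho when all animals were kept (adjusted permutation p below 0.05), and with 0 by either without animals 5 and 43. Cd247 had the highest correlation with their summed level (r = 0.73, adjusted permutation p = 9e-04, rho = 0.50). Without the 2 animals farthest from the median its r was 0.51, and without animals 5 and 43 it was 0.44 (adjusted permutation p = 0.0508). For Cd3d r was 0.65 with all animals and 0.26 without animals 5 and 43, and for Lck it was 0.37 and -0.13. Transcripts of B and plasma cells also moved with the T cell genes: r lay between 0.36 (Cd3g) and 0.62 (Bcl11b) for 8 genes, each with an adjusted permutation p below 0.05, and was 0.10 for Kcna3. Without animals 5 and 43, 6 of the 9 kept an adjusted p below 0.05, namely Cd3e, Cd3d, Cd247, Bcl11b, Lck and Cd28, with r between 0.37 and 0.59.

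**Figure D4:**
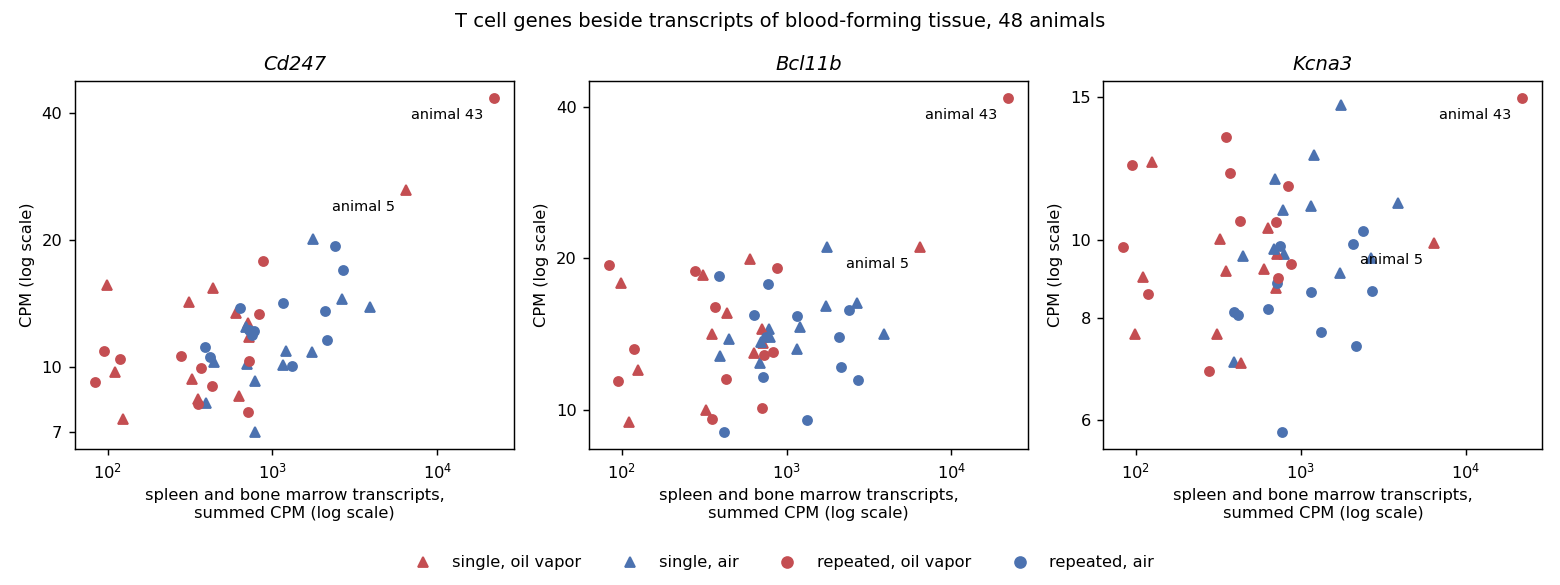
Level of Cd247, Bcl11b and Kcna3 (y axis, CPM, log scale) against the summed level of 9 spleen and bone marrow transcripts, mostly Alas2 (x axis, CPM, log scale) in the 48 animals, red for oil vapor and blue for air, triangles for single and circles for repeated exposure. Animals 43 and 5 lie at the far right, and Cd247 and Bcl11b are highest there, while Kcna3 of animal 5 lies among the other animals.

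Of the 15313 other genes compared, those whose centred log2 CPM was most like the mean of the 9 T cell genes were Acap1 (r = 0.93), Fam65b (0.92, now named Ripor2), LOC499229, LOC100912312, RGD1565356, Tmem71, the interleukin receptor gene Il21r, the T cell kinase Prkcq, the phosphatase Ptpn22 and Jakmip1 (0.88). Without animals 5 and 43 the 10 nearest genes shared 5 with these (Acap1, Fam65b, Jakmip1, LOC100912312 and LOC499229), and Acap1 again came first (r = 0.79). The newcomers included Cd8a, the coreceptor of cytotoxic T cells, the inhibitory receptor Btla and the B cell receptor component Cd79b.

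Other genes of T cells, 74 listed in 5 groups, were counted in each comparison of oil vapor with air, and 58 of them passed the filter on low counts. Some had high levels, such as Ets1 (mean 617 CPM over all libraries) and Plcg1 (432 CPM). The part of T cells in the levels of the listed genes was not tested. Listed genes share the same animals and can vary together, so counts of genes in 1 direction are not tests. One day after the repeated exposure, 33 of the 58 had higher fitted means in oil vapor without animal 43 (median 0.03). With all animals, and against 54.7% of all genes, 50 of the 58 did (median 0.22). Those of the smallest p were Orai2, a calcium channel subunit (log2 fold change 0.51, SE 0.13, adjusted p = 0.17, edgeR), Tcf7, a transcription factor of naive T cells (0.35, SE 0.09, adjusted p = 0.21), and Gata3, which directs T helper 2 cells (0.48, SE 0.16, adjusted p = 0.36). At 28 days after the repeated exposure 15 were higher and 43 lower (median -0.08), and Eomes, a factor of cytotoxic and memory T cells, had the smallest p (log2 fold change -0.67, SE 0.22, adjusted p = 0.68). After the single exposure 38 of 58 were higher at 1 day (23 without animal 5) and 20 of 58 at 28 days. In all 4 comparisons 0 of the 58 passed with edgeR, while 11, 1, 6 and 6 had an unadjusted p below 0.05 in the order given. Over all genes these shares were 9.29%, 4.86%, 10.1% and 8.21%. At 28 days after the repeated exposure the count without animal 43 was 10, in a fit where 61 of all 15090 genes were called.

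The coreceptors and the regulatory factor Foxp3 were read beside the 9 genes. Cd4, which rat macrophages also carry, had a mean of 64.5 ± 8.45 CPM in oil vapor, against 63.6 ± 2.25 CPM in air at 1 day after the repeated exposure (SD, n = 6 each). Cd8a had a mean of 28.9 ± 12.6 CPM in oil vapor, with animal 43 at 53.3 CPM, and 25.01 ± 3.74 CPM in air. At 28 days after the repeated exposure the mean of Cd8a was 22.5 ± 1.91 CPM in oil vapor against 27.6 ± 5.27 CPM in air. That of Cd4 was 62.8 ± 8.54 CPM in oil vapor against 65.8 ± 4.75 CPM in air. Neither changed past the test (log2 fold change -0.31, adjusted p = 0.98 for Cd8a and -0.08, adjusted p = 0.98 for Cd4, edgeR). Cd8b, the partner chain of Cd8a, had the opposite sign there, with 3.26 ± 0.89 CPM in oil vapor against 2.77 ± 0.79 CPM in air (log2 fold change 0.23, SE 0.33, adjusted p = 0.98). Foxp3 lay between 0.214 and 2.50 CPM over all animals, 1 to 9 counts per library, too few to compare.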

How the data were processed

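Lung RNA of 48 rats, 1 library each, was sequenced. Per the labels' protocols the libraries were stranded total RNA after depletion of ribosomal RNA. The tools HTSeq 0.6.1, HISAT2 2.1.0, SAMtools 1.8, Trimmomatic 0.35 and bcl2fastq 2.19 and the build Rnor_6.0 are named in the submitters' processing notes. For the annotation and the strand setting, not given in the sources used here, no statement is made. Unnormalized counts for 30045 gene symbols were deposited by the authors, in a table for each schedule, and 0 columns were left unmatched. One label of animal 32 points to the repeated-exposure table, and its title and column were followed.

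From these counts, CPM was computed over library totals of 1.54 to 7.16 M. Levels rest on 7 to 231 counts per gene and library, and since the labels name no molecular identifiers, PCR copies may be among them. Each schedule was fitted as a group-means model of its 24 libraries in edgeR 4.0.16 (TMM, filterByExpr, quasi-likelihood test, two-sided), with Benjamini-Hochberg adjustment over all genes and a threshold of 0.05. Differences between schedules used all 48 libraries, taken as independent. Standard errors were derived from the F value, or from the p where that gave the larger error, and are approximate. DESeq2 1.42.0, limma-voom with sample weights, which can lower the weight of a library (limma 3.58.1), 1 surrogate variable (sva 3.50.0), scores of spleen and bone marrow, liver and heart transcripts, other normalizations and filters, and leaving out animals were alternatives. The edgeR, DESeq2 and limma-voom fits were tested on simulated data for oil vapor against air at 1 day. Leaving out animals 5 and 43 together was added after the data were seen, as was leaving out 1 of them for the other gene lists. Correlations used 100000 permutations within groups, which can give a p of 1e-05 at the smallest.

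The 120 pairs of libraries within groups differed by more than sampling noise (chi-square per gene 2.26 to 77.1). Per the labels the rats were housed in pairs, and which animals shared a cage is not given, so the fits treat animals as independent. The 9 genes, the gene lists and the tests were chosen with earlier results of these data known. The rule for naming genes beside the 9 allows the 3 genes of smallest p of a list described, Cd4, Cd8a, Cd8b, Foxp3 and the 10 most like genes, and not all of these are named. Tissue markers such as Alas2, Alb and Ptcra, the newcomers among the like genes, and Kcnn4 were named after their values were seen. Receptor constant chain genes such as Trac and Trbc1 were not analysed here. Promoter windows and motif counts come from RefSeq (GRCr8), while the counts were made on another build, so no coordinate was passed between them.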

Additional observations from a re-analysis of the deposited data

Results flagged for a closer look

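Within a group of 6, the highest or lowest animal lay far from the others (Dixon's test) in 14 of 72 combinations of gene and group, where chance gives about 1 in 20. Of the 14, 10 came from animals 5 or 43. Animal 43 (repeated exposure, oil vapor, 1 day) was highest for Cd3e at 16.9 CPM (others up to 8.21), Cd3d at 33.2 (others up to 6.59), Cd247 at 43.6 (others up to 17.9), Bcl11b at 41.6 (others up to 19.4), Cd5 at 23.4 (others up to 10.4) and Lck at 66.4 CPM (others up to 35.1). Animal 5 (single exposure, oil vapor, 1 day) was highest for Cd3d at 13.7 CPM (others up to 4.74), Cd247 at 26.4 (others up to 12.7), Bcl11b at 21.1 (others up to 14.5) and Cd5 at 15.2 CPM (others up to 7.16). The levels of spleen and bone marrow transcripts in these animals stand in the results, and their part in these values was not tested.

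Animal 17 (single exposure, air, 28 days) was highest for Cd3d at 8.64 CPM, with the others at up to 5.61, and for Bcl11b at 21.0 CPM, with the others at up to 14.6. Animal 39 (repeated exposure, air, 1 day) was highest for Cd247 at 19.3 CPM, with the others at up to 12.2. Animal 92 (repeated exposure, oil vapor, 28 days) was lowest for Cd28 at 7.57 CPM, with the others between 8.86 and 9.49.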

How the results depend on the processing

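With 9 settings other than leaving out 1 animal, and with each animal left out, 3006 values of the 9 genes were recomputed over 12 comparisons. After adjustment 2 were called: Cd247 at 28 days over 1 day in oil vapor after the single exposure with other-tissue scores (log2 fold change 0.77, adjusted p = 0.0409, 1 of the 9 and 542 of all genes called), and Bcl11b for the same contrast after the repeated exposure with DESeq2 (-0.88, adjusted p = 0.0498, 1 of the 9 and 311 of all genes called). Of 2178 values with 1 animal left out 0 were called. A further 191 values changed sign within 1 SE of 0. With other-tissue scores the sign turned for Lck in the effect at 28 days minus that at 1 day after the single exposure (0.079), for Cd3d (0.36), Cd247 (0.24) and Lck (0.12) at 28 days after the repeated exposure, and for Cd28 in the effect at 28 days minus that at 1 day there (0.17). At 28 days the spleen and bone marrow transcripts differed between oil vapor and air, so these fits cannot tell the treatment apart from them. With limma-voom and its sample weights Cd247 was at -0.055 at 1 day after the repeated exposure. Leaving out each animal in turn gave ranges of -0.047 to 0.45 for Cd247 at 1 day after the single exposure, and of -0.0079 to 0.96 for Cd3d, -0.078 to 0.55 for Cd247 and -0.022 to 0.42 for Cd28 at 1 day after the repeated exposure, the lowest without animal 5 or 43. The difference between schedules at 1 day was -0.070 for Cd3d without animal 43. The cause was not tested. The like-ranked animals gave 1 gene in the main analysis, 0 on log2 counts and 0 without the pair of animal 43. No paired analysis was possible because the numbers in the labels name single animals and the groups share none, and the like-ranked pairs, set by order and not by a label, were not used as a block. Counts of 7 to 231 limit what these libraries can show of small changes.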

Other observations

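Genes of neighbouring lymphocytes gave further values. Within a list the genes share the same animals and can vary together, so counts of genes in 1 direction are not tests. B and plasma cell genes had higher fitted means in oil vapor than in air at 1 day after the repeated exposure in 12 of 12 tested genes (median log2 fold change 0.35, 0 called, 3 with an unadjusted p below 0.05), and in 12 of 12 without animal 43 (median 0.25). Over all genes, with all animals, 54.7% were higher there and 9.29% had an unadjusted p below 0.05. At 28 days natural killer and cytotoxic cell genes had lower fitted means in oil vapor in 12 of 12 (median -0.32, 0 called, 3 with an unadjusted p below 0.05). Over all genes 52.5% were higher in oil vapor there and 4.86% had an unadjusted p below 0.05. Nkg7, a granule membrane protein of cytotoxic cells, had the smallest p of the natural killer and cytotoxic list (log2 fold change -0.42, SE 0.16, adjusted p = 0.85, edgeR), and Klrd1, the killer cell receptor CD94, followed (-0.87, SE 0.35, adjusted p = 0.91). Without animal 43, 1 of the 12 was called, Nkg7 (-0.43, SE 0.10, adjusted p = 0.049), among 61 of all 15090 genes.

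Of the other 58 T cell genes tested, 3 passed edgeR's quasi-likelihood test with time after the single exposure in oil vapor and 1 in air, where 9.43% and 3.25% of all genes were called. S1pr1, the receptor that lets lymphocytes leave lymph nodes and that lung endothelium also carries, was higher at 28 days than at 1 day in oil vapor (log2 fold change 0.65, SE 0.09, adjusted p = 6.3e-05) and in air (0.43, SE 0.09, adjusted p = 0.0084). Ets1 (-0.23, SE 0.05, adjusted p = 0.0067) and Gata3 (-0.75, SE 0.18, adjusted p = 0.0076) were lower at 28 days in oil vapor. The part of T cells in the levels of these genes was not tested. In air the log2 fold change over time was 0.00 for Ets1 (adjusted p = 0.99) and 0.17 for Gata3 (adjusted p = 0.73). The difference between treatments was -0.23 for Ets1 (SE 0.08, adjusted p = 0.50), -0.91 for Gata3 (SE 0.25, adjusted p = 0.38) and 0.22 for S1pr1 (SE 0.13, adjusted p = 0.70), and none passed. Without animals 5 and 43 these calls remained, and Kcnn4, a calcium-activated potassium channel, was also called at 28 days over 1 day in oil vapor, at -0.69 (SE 0.15, adjusted p = 0.027) after the repeated exposure (156 of all 15090 genes called) and 0.51 (SE 0.16, adjusted p = 0.048) after the single exposure (1226 of 14922).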
